A study of Danio rerio with 6 samples.

Results

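Among 3 pooled samples of *vhl* mutant zebrafish embryos, replicate 1 differed from replicates 3 and 4 at a small set of array probes. These probes are described here. At them replicates 3 and 4 stayed close to each other, and the wild-type arrays stayed close among themselves. No limit was set on the distance between replicates 3 and 4 and wild-type. A member is a zebrafish probe that was well above background on all 3 *vhl* mutant arrays and met 3 further limits on its log2 signal. Replicate 1 had to differ from the mean of replicates 3 and 4 by 1.5 or more, replicates 3 and 4 had to differ from each other by under 0.5, and the wild-type range had to be under 0.5. Of 41031 probes, 25677 were well above background on all 3 *vhl* mutant arrays, 21074 of these met both limits of 0.5, and 157 were members. In replicate 1, 68 members were higher and 89 were lower than in replicates 3 and 4. The log2 signals of the 6 arrays chose the members. The size of that difference and the small spreads within replicates 3 and 4 and within wild-type therefore describe the choice and are not findings.

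The study compared embryos homozygous for a mutation of *vhl* (replicates 1, 3 and 4) with wild-type embryos (replicates 2, 3 and 4) at 4 days post fertilisation (dpf), to find transcripts that respond to a loss of Vhl. Each sample held RNA from 30 whole embryos of a TL/LWT mix, kept at 28 °C in E3 medium with methylene blue, and each was hybridised to 1 one-colour Agilent array. The methods of the study describe the hu2117 allele of *vhl* in fish that also carry the hypoxia reporter Tg(*phd3::EGFP*) i144, and the labels do not say whether the arrayed embryos carried the reporter. A pool of whole embryos gives 1 value for all tissues and all 30 animals, so fewer cells of a type and less RNA per cell cannot be told apart, nor can a few embryos that differ much and many that differ little.

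The product of *vhl*, the von Hippel-Lindau protein, is the part of a ubiquitin ligase that binds HIF-α, a subunit of the Hypoxia Inducible Factor (HIF), so that it is degraded when oxygen is present. Without it HIF accumulates and activates its target genes, among them enzymes of glycolysis, the prolyl hydroxylases that act on HIF itself, and growth factors of blood vessels. Embryos that lack Vhl therefore show a hypoxic response in normal oxygen.

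Replicate 1 stood apart from the other *vhl* mutant arrays across all probes and not at the members alone. Pearson's r over all probes was 0.981 between replicates 1 and 3 and 0.977 between replicates 1 and 4, and it was 0.988 between replicates 3 and 4. The wild-type pairs had r of 0.993 to 0.995. The second principal component, with 17.5% of the variance, placed *vhl* mutant replicate 1 at 63.2 and the other 5 arrays between -30.3 and -5.0, while the first, with 63.5%, placed replicate 1 at -33.0, between *vhl* mutant replicates 3 and 4 (-60.9 and -71.5) and wild-type (53.7 to 56.1). The share of zebrafish spots well above background was 67.2% in replicate 1, 72.4% and 69.6% in *vhl* mutant replicates 3 and 4, and 67.2% to 69.5% in wild-type. The headers place the 3 *vhl* mutant arrays on 1 slide with 1 scan time and the 3 wild-type arrays on another, so slide and genotype cannot be told apart, and replicate 1 shared its slide with replicates 3 and 4. On the same scale the 8 spike-in probes that were above background on the arrays, for RNA added in known amounts, were lower in replicate 1 than the mean of replicates 3 and 4 by 0.35 on average, between -0.48 and -0.01. The gap was wider to replicate 3. Replicate 1 differed by -0.60 from replicate 3 and by -0.11 from replicate 4. The means were 12.54 in replicate 1, 13.13 and 12.64 in replicates 3 and 4, and 11.91 to 12.44 in wild-type. Among the *vhl* mutant means that of replicate 3 lay farthest from the others. Replicate 1 was the lowest of the *vhl* mutant arrays at 6 of the 8 probes, and lay below replicate 3 at all 8. The part of the spike-in level in the differences below was not tested.

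The 157 members made up 0.383% of all probes. The median difference of replicate 1 was 1.75 among the higher members (3.37-fold) and -1.81 among the lower members (3.50-fold), against 0.02 over the 21074 probes that met both limits of 0.5. A difference of 2 or more in size was reached by 21 higher and 33 lower members, of 3 or more by 9 and 7, and of 4 or more by 1 and 3. At the limit itself, the nearest higher members had differences of 1.506 and 1.509 and the nearest probes left out had 1.484 and 1.49994, and the nearest lower members had -1.502 and -1.503 and the nearest left out -1.487 and -1.495. The limit divides a continuous range: 435 probes well above background on the *vhl* mutant arrays had a difference of 1.5 or more in size, and of these 190 failed the agreement of *vhl* mutant replicates 3 and 4 and 174 the wild-type range.

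The median log2 signal of the higher members was 9.17 in *vhl* mutant replicate 1, 7.06 and 7.08 in replicates 3 and 4, and 8.19, 8.47 and 8.42 in wild-type replicates 2, 3 and 4. The dimmer side lay under 7, where negative control spots averaged 5.75 to 5.78 per array, in 34 of 68. For the lower members the medians were 8.12 in *vhl* mutant replicate 1, 10.36 in both replicates 3 and 4, and 9.03, 9.06 and 9.07 in wild-type, and 17 of 89 had a dimmer side under 7. All 3 wild-type arrays were well above background for 64 of 68 higher and 88 of 89 lower members.

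**Figure D1:**
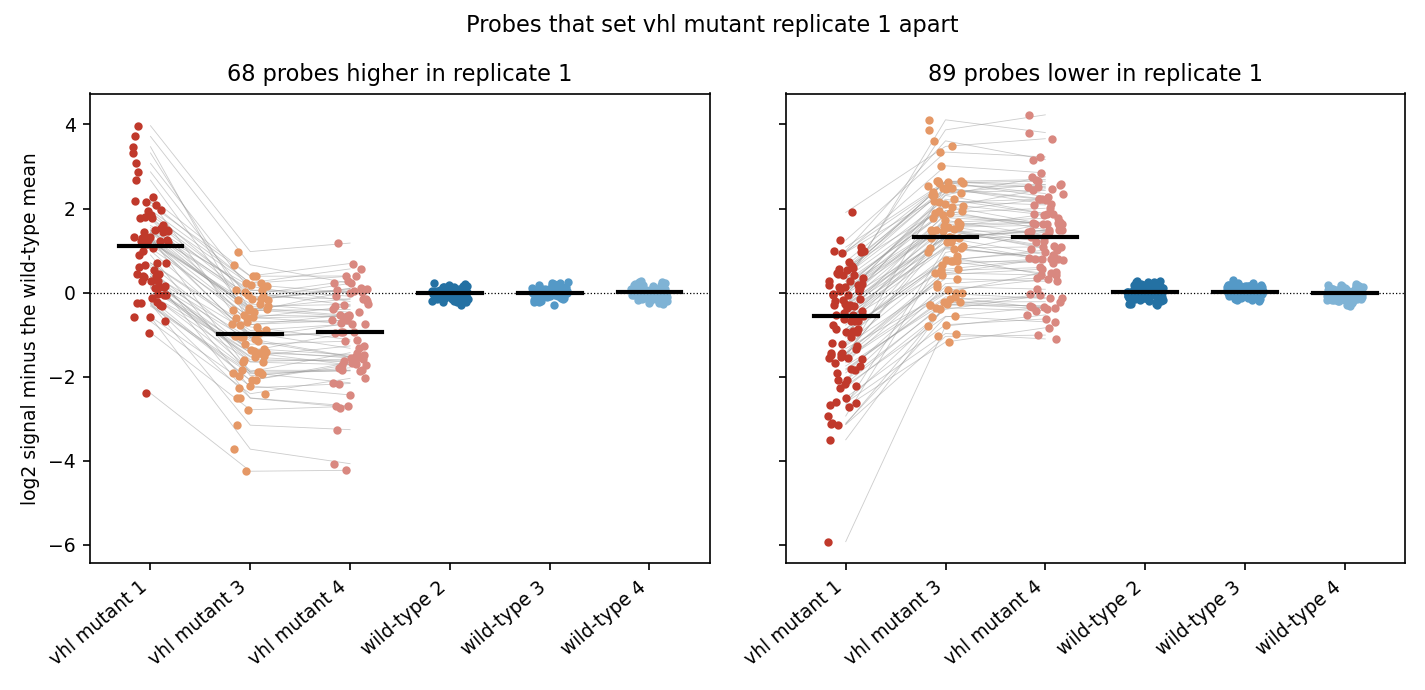
Log2 signal of every member on each array, minus the mean of the 3 wild-type arrays, for the 68 members higher (left) and the 89 lower (right) in *vhl* mutant replicate 1. Each point is 1 probe, black bars are medians over the probes, and grey lines join the 3 *vhl* mutant arrays. The median in replicate 1 lies at 1.11 on the left and -0.56 on the right, and the wild-type points are tight because the choice of members required it.

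The wild-type level did not lie on 1 side of the members. It was placed as nearer to replicate 1, nearer to replicates 3 and 4, or more than 0.5 above or below both. Of the 68 higher members, wild-type lay nearer to replicate 1 in 28, nearer to replicates 3 and 4 in 33, above both in 5 and below both in 2. Of the 89 lower members the counts were 41, 30, 6 and 12 in the same order. Counted over all places, replicate 1 was the closer to the wild-type mean in 33 of 68 higher and 53 of 89 lower members. The mean of replicates 3 and 4 was the closer in 35 higher and 36 lower members. Probes with a difference of 0.5 to 1.5 that met the same limits had wild-type nearer to replicate 1 in 51.8% of 1620 higher and 51.9% of 1389 lower probes, against 41.2% of the higher and 46.1% of the lower members. The place of wild-type in the members was within 0.5 of replicate 1 for 21 higher and 30 lower members, and within 0.5 of replicates 3 and 4 for 23 higher and 18 lower members. Replicate 1 lay on the other side of wild-type from replicates 3 and 4, each by 0.5 or more, in 17 higher and 23 lower members.

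**Figure D2:**
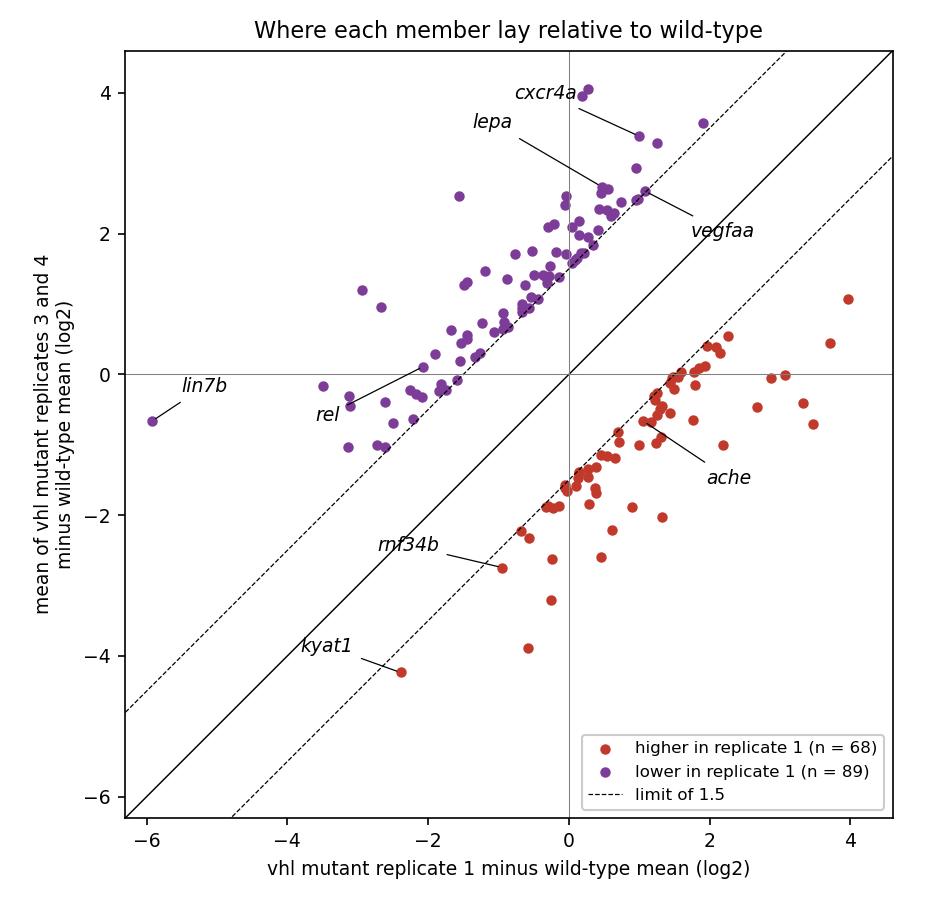
Difference from the wild-type mean on the log2 scale in *vhl* mutant replicate 1 (horizontal axis) and in the mean of replicates 3 and 4 (vertical axis), 1 point per member. The solid line marks equal values and the dashed lines the limit of 1.5 that chose the members. Points spread along both dashed bands, with *lin7b* far to the left at -5.92 and *kyat1* lowest at -4.23.

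Of the 157 members, 16 had a gene name, as had 2558 of the 25677 probes well above background on the *vhl* mutant arrays, 6 of the higher and 10 of the lower. The other 141 are known here only by the accession or UniGene cluster of their probe. By source of the probe, 42.6% of the higher and 39.3% of the lower members came from full-length cDNA records whose accession starts with BC, against 32.7% of the probes well above background, and 2.94% and 4.49% from records that start with CT, against 11.9%. The 16 named genes lie on 14 chromosomes of assembly GRCz12tu.

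Among the lower members were genes for secreted ligands and for a receptor. For *vegfaa*, the ligand that drives growth of blood vessels, the log2 signal was 10.23 in *vhl* mutant replicate 1 and 11.80 and 11.71 in replicates 3 and 4, against 9.43, 8.99 and 9.02 in wild-type. All 3 mutant arrays lay above all wild-type arrays, and such a lack of overlap, in either direction, was found at 48.3% of all probes. Replicate 1 was 1.08 above the wild-type mean where replicates 3 and 4 were 2.61 above it. The probe was spotted at 2 places on the array, and the 2 spots gave differences of -1.64 and -1.41 for replicate 1. A second probe for *vegfaa* was not well above background on replicate 1 or on wild-type arrays, and read 5.83 in replicate 1, 6.33 and 6.21 in replicates 3 and 4, and 5.96, 6.07 and 5.74 in wild-type.

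The chemokine receptor gene *cxcr4a* read 10.13 in *vhl* mutant replicate 1 and 12.74 and 12.29 in replicates 3 and 4, against 9.03, 9.14 and 9.22 in wild-type. Replicate 1 again stood between the wild-type arrays and the other mutants, 1.0 above the wild-type mean and 2.39 below the mean of replicates 3 and 4. The leptin gene *lepa*, which encodes a hormone of energy balance, read 6.73 in *vhl* mutant replicate 1 and 8.91 and 8.95 in replicates 3 and 4, against 6.43, 6.18 and 6.17 in wild-type. In processed signal *lepa* had 53.2 units in *vhl* mutant replicate 1, 364 and 437 in replicates 3 and 4, and 34.3, 20.1 and 22.2 in wild-type, so replicate 1 was dim and close to wild-type.

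The largest difference of all 157 members was in *lin7b*, a gene for a PDZ scaffold protein of cell junctions and synapses. It read 6.53 in *vhl* mutant replicate 1 and 11.66 and 11.92 in replicates 3 and 4, against 12.46, 12.52 and 12.37 in wild-type, a difference of -5.26 (38.3-fold) for replicate 1. Its processed signal was 40 in *vhl* mutant replicate 1, 2611 and 3680 in replicates 3 and 4, and 6481, 6331 and 5946 in wild-type. So 5 of 6 arrays were bright and replicate 1 alone was near the level of dim probes. The value rests on 1 spot per array.

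The transcription factor gene *rel*, for a subunit of NF-κB, had a similar shape at a smaller size. It read 7.93 in *vhl* mutant replicate 1 and 10.14 and 10.08 in replicates 3 and 4, against 10.23, 9.82 and 9.94 in wild-type. For *mab21l3*, replicate 1 (7.22) also lay below wild-type (8.04, 8.05 and 8.15), but replicates 3 and 4 (8.64 and 8.88) lay above it.

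In the other named lower members replicate 1 lay within 0.5 of the wild-type mean and replicates 3 and 4 lay above it. These were *zyx*, for the focal adhesion protein zyxin, *bcl6ab*, for a transcriptional repressor, *bltp3b*, whose human counterpart is a lipid transfer protein, and *si:ch211-196f5.2*. *zyx* read 8.84 in *vhl* mutant replicate 1 and 10.33 and 10.42 in replicates 3 and 4, against 8.78, 8.70 and 8.79 in wild-type. *bcl6ab* read 9.26 in *vhl* mutant replicate 1 and 10.98 and 10.54 in replicates 3 and 4, against 8.82, 9.05 and 8.88 in wild-type. Both therefore had replicate 1 next to the wild-type arrays and a gap to the other mutants. *bltp3b* read 7.96 in *vhl* mutant replicate 1 and 9.77 and 9.42 in replicates 3 and 4, against 7.48, 7.58 and 7.57 in wild-type. *si:ch211-196f5.2* read 9.28 in *vhl* mutant replicate 1 and 10.88 and 11.19 in replicates 3 and 4, against 9.44, 9.49 and 9.04 in wild-type.

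Among the higher members, 3 named genes lay more than 1 below wild-type in replicates 3 and 4. For *kyat1* (*ccbl1* in the study's tables), an enzyme of kynurenine and cysteine conjugate metabolism, the signal was 9.40 in *vhl* mutant replicate 1 and 7.55 and 7.57 in replicates 3 and 4, against 11.71, 11.85 and 11.81 in wild-type. All 3 mutant arrays lay below all wild-type arrays, with differences from the wild-type mean of -2.39 in replicate 1 and -4.23 in replicates 3 and 4, and the 2 spots of the probe gave differences of 1.75 and 1.94 for replicate 1. *rnf34b*, for a RING finger ubiquitin ligase, read 8.36 in *vhl* mutant replicate 1 and 6.53 and 6.61 in replicates 3 and 4, against 9.33, 9.28 and 9.33 in wild-type. Its mutant arrays also lay below wild-type without overlap. *fam210aa* read 8.96 in *vhl* mutant replicate 1 and 7.31 and 7.14 in replicates 3 and 4, against 8.69, 8.62 and 8.76 in wild-type, so that replicate 1 was 0.27 above the wild-type mean.

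For the other 3 replicate 1 lay above wild-type. *ache*, for the enzyme that breaks down acetylcholine at synapses, read 10.73 in *vhl* mutant replicate 1 and 9.08 and 8.93 in replicates 3 and 4, against 9.51, 9.84 and 9.65 in wild-type, so wild-type lay between the mutants. Its 2 spots gave differences of 1.65 and 1.80. *soat2*, for an enzyme that esterifies cholesterol (*zgc:153102* in the study's tables), read 8.42 in *vhl* mutant replicate 1 and 6.77 and 7.02 in replicates 3 and 4, against 7.10, 7.30 and 7.08 in wild-type. *fam102bb* read 8.04 in *vhl* mutant replicate 1 and 6.07 and 6.40 in replicates 3 and 4, against 6.21, 6.01 and 6.12 in wild-type, where replicate 3 was not well above background. In both, replicate 1 was brighter than each of the other 5 arrays.

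**Figure D3:**
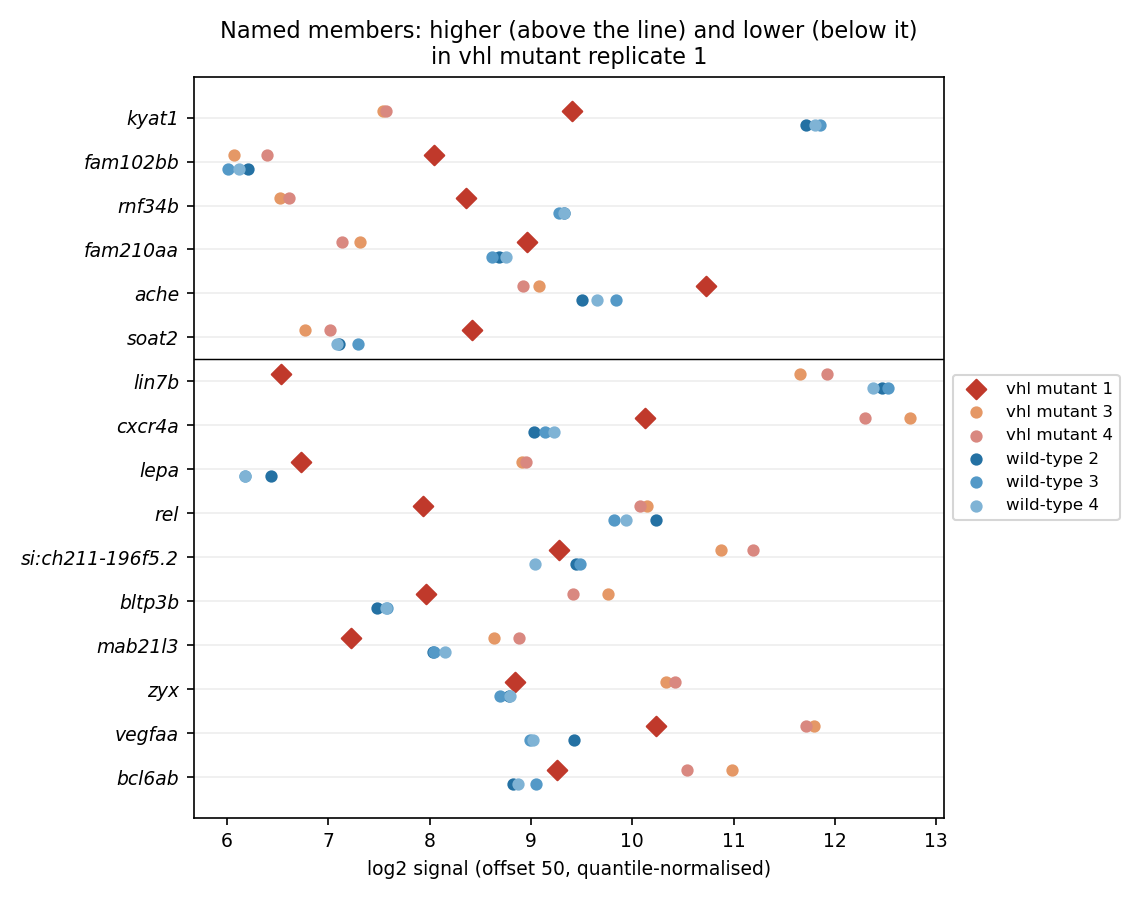
Log2 signal of the 16 named members on each of the 6 arrays, with *vhl* mutant arrays on the upper and wild-type arrays on the lower line of each gene and replicate 1 as a diamond. The 6 genes above the rule were higher in replicate 1 and the 10 below it lower, and *lin7b* has the widest gap, 6.53 against 11.66 and 11.92.

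Members without a name reached differences of 4.18 for replicate 1 on the higher side and -4.13 on the lower. Of the higher members, probe BC092788 read 10.77 in *vhl* mutant replicate 1 and 6.55 and 6.65 in replicates 3 and 4, against 7.11, 7.41 and 7.39 in wild-type. The UniGene probes Dr#S45449474 and Dr#S25721285 followed with differences of 3.73 and 3.36, and their wild-type means lay 3.32 and 1.33 below replicate 1. Of the lower members, probe BC059568 read 6.50 in *vhl* mutant replicate 1 and 10.39 and 10.88 in replicates 3 and 4, against 9.45, 9.57 and 9.27 in wild-type. Probe BC075941 read 9.53 in *vhl* mutant replicate 1 and 13.63 and 13.61 in replicates 3 and 4, against 11.01, 11.28 and 10.97 in wild-type, so that wild-type lay between the mutants. Probe Dr#S45449091 had a difference of -3.78, with replicate 1 0.18 above the wild-type mean and replicates 3 and 4 3.96 above it.

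Members with more than 1 spot gave a measure that the rule had averaged. The 17 members with 2 spots had both spots past 1 in the direction of the member, and 12 had both past 1.5. The mean of the 2 spots had to reach 1.5 for a member, so nothing is read from these counts. The 2 spots of a probe lay at least 12 rows apart, and their differences for replicate 1 disagreed by 0.13 in the median and by 0.27 at most. None of the 174 member spots carried an outlier flag on any array (0 of 174). Such flags were rare, at 15 to 63 of the 45220 spots of an array, so nothing is read from that count. The local background of member spots had a median of 20 units in *vhl* mutant replicate 1, 21.5 and 21 in replicates 3 and 4, and 25 on each wild-type array. By quadrant of the array, 17.1% to 28.9% of the higher and 17.3% to 30.6% of the lower member spots fell in each, against 24.7% to 25.3% of all zebrafish spots, and 8 member spots lay within 2 rows and 1 column of a spot of another member.

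The members were then set in the comparison of the groups with limma on the same values (all 6 arrays, with Benjamini-Hochberg adjustment across the whole table). The threshold was a 2-fold change at adjusted p ≤ 0.01, at which 1064 of 41031 probes were called (2.59%), 537 higher in *vhl* mutants (1.31%) and 527 lower (1.28%). None of the 157 members was called (0 of 157). The choice of members fixes a wide spread among the *vhl* mutant arrays, so nothing is read from that count. At an unadjusted p under 0.05, 7 higher and 21 lower members passed, against 38.5% of all probes, and at an adjusted p under 0.05 with no limit on the fold 7 members passed, against 25.1%. For *vegfaa* the log2 fold change of *vhl* mutant over wild-type was 2.1 (SE 0.47, adjusted p = 0.0345), for *cxcr4a* 2.59 (SE 0.73, adjusted p = 0.0604), and for *lepa* 1.93 (SE 0.67, adjusted p = 0.0987). For *kyat1* it was -3.62 (SE 0.55, adjusted p = 0.0127) and for *rnf34b* -2.15 (SE 0.54, adjusted p = 0.0452). For *lin7b* it was -2.41 (SE 1.58, adjusted p = 0.334).

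Without *vhl* mutant replicate 1, the same limma fit on 2 *vhl* mutant and 3 wild-type arrays called 1753 probes (4.27%), 842 higher in *vhl* mutants (2.05%) and 911 lower (2.22%), and 83 members. Of the 68 higher members 1 was then called higher and 31 lower, and of the 89 lower members 49 were called higher and 2 lower. The members had to agree within replicates 3 and 4 and within wild-type, so their errors and p-values in this fit are small by choice. The count is a description, and only fold changes are given for single genes. Of the named members, 10 were called. The log2 fold change became 2.61 for *vegfaa*, 3.39 for *cxcr4a* and 2.69 for *lepa*. It became 1.62 for *zyx*, 1.85 for *bcl6ab*, 2.06 for *bltp3b* and 1.71 for *si:ch211-196f5.2*. Among the higher members it became -4.25 for *kyat1*, -2.76 for *rnf34b* and -1.48 for *fam210aa*. The other 6 named members, *lin7b*, *rel*, *mab21l3*, *ache*, *soat2* and *fam102bb*, were not called without replicate 1 either. For these 6 the log2 fold change lay between -0.66 and 0.69.

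Because *vegfaa* and *cxcr4a* are on a list of HIF target genes, the difference of replicate 1 was described over the whole list. It included genes that the study itself picked out on these samples, so it is not independent of them. Of the 77 genes, 29 had a named probe, and 28 probes of 27 genes were well above background on all 3 *vhl* mutant arrays. Replicate 1 lay above all wild-type arrays at 26 of these 28 probes. For scale, the 3 *vhl* mutant arrays lay all above or all below wild-type at 48.3% of all probes, which is not the same count. The share of all probes with replicate 1 above all wild-type arrays was not counted, so nothing is read from the 26. Replicate 1 was the lowest of the *vhl* mutant arrays at 20 of 28 (71.4%, against 37.7% of all probes well above background). It was the highest at 4 of 28, against 41.4% of all probes well above background. Probes of the list that were called between the groups were all higher in *vhl* mutants. At the 537 probes called higher in *vhl* mutants, a set called with replicate 1 in the fit, it was the lowest at 49.9%. The median difference of replicate 1 was -0.34 over the list and 0.01 over all 25677 probes, and a difference of -0.5 or less was found in 11 of 28 (39.3%, against 9.87%). *vegfaa* and *cxcr4a* are counted here and had been chosen by this difference. Over the 26 probes that were not members, replicate 1 was the lowest of the mutants at 18 (69.2%), the median difference was -0.27, and a difference of -0.5 or less was found in 9 (34.6%). These values rest on the same arrays and the same difference as the rule for members, so they are a description. The 8 spike-in probes above background had a mean difference of -0.35 on this scale, with replicate 1 the lowest of the mutants at 6. The part of the spike-in level in the list was not tested. At the threshold above, 15 probes of the list were called higher in *vhl* mutants and 0 lower, with *vegfaa* and *cxcr4a* not among them. Only named probes can be on the list, and names came in part from the study's list of changed genes. Of all 3159 named probes, 200 were called higher and 288 lower. Over the 2558 named probes well above background the median difference of replicate 1 was 0.07, and 9.70% had a difference of -0.5 or less.

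The difference was uneven within the list. The largest, at -1 or less in 7 probes, were in *cxcr4a*, *igfbp1a*, *vegfaa*, *pfkfb3*, *p4ha1b*, *vegfab* and *plod1a*. *pfkfb3*, for an enzyme that raises the rate of glycolysis, read 13.28 in *vhl* mutant replicate 1 and 14.83 and 14.66 in replicates 3 and 4, against 10.83, 10.23 and 10.39 in wild-type. *vegfab*, the paralogue of *vegfaa*, read 12.32 in *vhl* mutant replicate 1 and 13.45 and 13.49 in replicates 3 and 4, against 10.34, 10.53 and 10.68 in wild-type. In both, replicate 1 was 1.81 or more above wild-type and still below the other mutants. *igfbp1a* met the limit of 1.5 with a difference of -1.78 but not the limit on the wild-type range, since wild-type read 11.00, 10.27 and 10.48.

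The difference was small or in the other direction at *ldha* and *egln3*. *egln3*, for a prolyl hydroxylase that acts on HIF, read 16.21 in *vhl* mutant replicate 1 and 15.83 and 15.57 in replicates 3 and 4, against 8.94, 8.71 and 8.90 in wild-type, so replicate 1 was the highest of the mutants. *ldha*, for lactate dehydrogenase, read 16.06 in *vhl* mutant replicate 1 and 16.25 and 16.16 in replicates 3 and 4, against 14.60, 14.41 and 14.58 in wild-type, so replicate 1 was the lowest of the mutants by a small margin, with a difference of -0.14. The 13 probes of the glycolysis list had a median difference of 0.04. Replicate 1 was thus 7.36 above the wild-type mean at *egln3* and 1.54 at *ldha*, where the mean of replicates 3 and 4 was 6.85 and 1.67 above it.

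**Figure D4:**
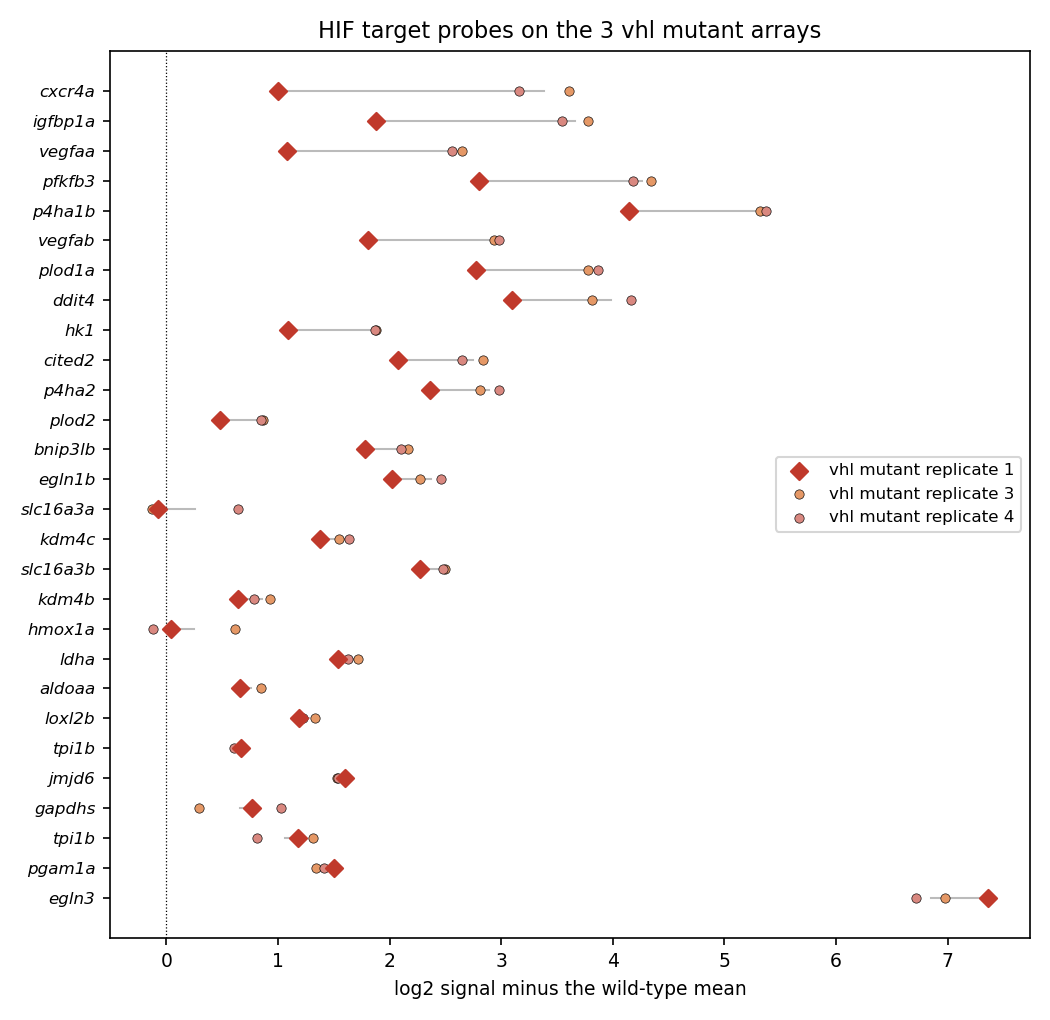
Log2 signal minus the wild-type mean for the 28 HIF target probes well above background on all *vhl* mutant arrays, ordered by the difference of replicate 1 from the mean of replicates 3 and 4. Diamonds are replicate 1, circles replicates 3 and 4, and grey bars end at the mean of replicates 3 and 4. Replicate 1 is the lowest of the 3 at 20 of 28 probes, most clearly from *cxcr4a* to *plod1a* at the top, and the highest at *egln3* at the bottom.

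Over the probes called between the groups, replicate 1 was on average slightly nearer to wild-type. The 537 called higher had median differences from the wild-type mean of 1.38 in *vhl* mutant replicate 1 and 1.44 and 1.45 in replicates 3 and 4, and replicate 1 was the lowest of the mutants in 49.9% of them. The 527 called lower had medians of -1.31 in replicate 1 and -1.40 and -1.44 in replicates 3 and 4, and replicate 1 was the highest of the mutants in 52.9%. These probes were called with replicate 1 in the fit, which leaves out probes where it stood far apart.

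The lists are matched by gene name, so only the 16 named members could be on one and the other 141 could not. Of the 16, 0 were on any of the 14 lists of cell type markers. *vegfaa* and *cxcr4a* were the only ones on any of the 14 pathway lists. Nothing is read from these counts about the unnamed members. All lists hold only named probes. Of the 2558 named probes well above background on the *vhl* mutant arrays, 12.35% had a difference of 0.5 or more and 9.70% of -0.5 or less. Their median difference was 0.07. Of the marker lists, 10 had 5 or more probes well above background on the *vhl* mutant arrays, and their median differences for replicate 1 lay between -0.39 and 0.39. The highest was in photoreceptor genes, where 7 of 18 probes had a difference of 0.5 or more (38.9%), against 2613 of all 25677 probes well above background (10.18%), and 1 had a difference of -0.5 or less. Relative to the wild-type mean the median of these probes was -0.83 in *vhl* mutant replicate 1 and -1.39 and -1.29 in replicates 3 and 4. The lowest was in the 6 erythroid probes, of which 0 were at 0.5 or more and 2 at -0.5 or less, and relative to wild-type their median was 1.79 in *vhl* mutant replicate 1 and 2.33 and 2.59 in replicates 3 and 4. In 6 of the 10 lists, these 2 among them, the median of replicate 1 lay nearest to wild-type of the 3 mutant arrays. The margin was small in lens (0.07 in replicate 1 against 0.09 in replicate 4) and in intestine (-1.25 in replicate 1 against -1.27 in replicate 3). In the 6 probes of neurons and glia the median of replicate 1 lay farthest, with -0.53 in *vhl* mutant replicate 1 and -0.45 and -0.32 in replicates 3 and 4. Of the pathway lists, 8 had 5 or more such probes, with medians between -0.34 for HIF targets and 0.71 for sterol and fatty acid synthesis, where 5 of 6 probes were at 0.5 or more (83.3%, against the same 10.18%) and 1 was at -0.5 or less. Relative to the wild-type mean the median of these 6 probes was -0.10 in *vhl* mutant replicate 1, -0.63 in replicate 3 and -1.17 in replicate 4. Replicates 3 and 4 thus also lay apart from each other in this list. The part of any of these tissues in the members was not tested.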

How the data were processed

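RNA of 3 *vhl* mutant and 3 wild-type pools of 30 embryos was measured on 1 Agilent one-colour array each, with groups as in the sample titles. The submitters' processing notes name Agilent Feature Extraction 10.7.3.1 and limma 3.24.10. The deposited scanner files hold intensities: the processed signal, background-subtracted within each array by Feature Extraction, and the median spot and local background brightness. The deposited flags (control, outlier, well above background) are codes without a unit. Columns that belonged to no sample numbered 0.

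Here log2(processed signal + 50) of the 43803 zebrafish spots was quantile-normalised over the 6 arrays and averaged by probe name, with 1264 positive and 153 negative control spots left out and outlier-flagged spots kept, as the rule for members names no removal. A probe with several spots counted as well above background by majority or tie. The offset of 50 understates differences of dim probes. The comparison of groups was fitted with limma 3.58.1 (lmFit, then eBayes; R 4.3.3), with fold changes of *vhl* mutant over wild-type and adjustment over 41031 probes. The calculation was also run on simulated data with equal noise on all 6 arrays and no slide effect. That run checks the calculation and does not measure its error rate on these arrays. The methods of the study used normexp on spot brightness, which was run as an alternative. The number of arrays limits precision, and slide and genotype cannot be told apart. The pools are called biological replicates without a statement of how embryos were drawn, so p-values measure the spread between these pools. The pools of a group shared a slide, so the p-values do not measure a spread between slides.

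Gene names came from RefSeq accessions without version (1752 probes, GRCz12tu) or from the probe and symbol columns of the study's tables, 1 of which was available in part (1407 further probes), and older symbols were updated. Fold changes and p-values in those tables were not used. No coordinates and no sequences are printed. The text names every named member, the 3 largest unnamed ones in each direction, those nearest the limit, and *egln3*, *pfkfb3*, *ldha* and *vegfab*. The names *igfbp1a*, *p4ha1b* and *plod1a* were chosen after their values were seen. The HIF target list without its members and the summary over lists with 5 or more probes were also added after the values were seen. The members, the limits and the gene lists were chosen with earlier results of these data known. Alternatives covered the offset, signal, normalisation, outlier and dim spots, each limit, the deposited series table, array weights, a replicate block and each replicate left out.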

Additional observations from a re-analysis of the deposited data

How the results depend on the processing

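The values were also made in 8 other ways. These included 2 offsets, normexp on all spots and without 2 spots of high local background, and scaling to the 75th percentile. The others were no normalisation, outlier spots removed and the deposited series table. The direction of replicate 1 was kept by 157 of 157 members under all 8, and its size was 1 or more in all of them for 156. All 8 start from the same arrays that chose the members, so these counts are a description and no independent check. The alternative without those 2 spots, and the place of wild-type and the HIF list under each of the 8, were added after seeing the data. In that alternative the counts of higher and lower members stayed within 1.5 times of the main counts. The counts of members with wild-type nearer to replicate 1 did so under each of the 8. Which probes passed the limits did change. There were 136 lower members with no offset, of which 75 were among the 89, and 102 higher, of which 45 were among the 68. Normexp on all spots gave 50 higher members, 38 of them among the 68. It gave 65 lower members, 61 of them among the 89. Under normexp the difference fell below 1.5 in size for *fam102bb* (1.05), *soat2* (1.13), *mab21l3* (-1.33), *zyx* (-1.38), *bcl6ab* (-1.45) and *vegfaa* (-1.46). The other named members kept 1.5 or more. No filter on dim probes gave 107 higher members. A limit of 1 on the difference gave 269 higher and 312 lower members and a limit of 2 gave 21 and 33. Limits of 1 on the agreement gave 123 and 153 and limits of 0.25 gave 26 and 24. Leaving out 1 array in turn (the rule needs *vhl* mutant replicate 1) gave 78 to 152 higher and 100 to 237 lower members, most without *vhl* mutant replicate 4 for the higher and without replicate 3 for the lower, where agreement of the other mutants can no longer be asked.

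Of 41031 probes, the limma calls numbered 1314 with normexp on all spots, 1497 without the 2 spots of high local background, and 1313 with scaling. An offset of 16 gave 1606 (3.91%), array weights 1795 (4.37%), and an adjusted p under 0.05 with no fold limit 10291 (25.1%). Of the 27303 probes well above background on all arrays of a group, 1695 were called (6.21%). The calls numbered 59 (without wild-type replicate 3) to 1753 (without *vhl* mutant replicate 1) with 1 array left out. Of the 157 members, 2 were called with either normexp setting, 1 with scaling to the 75th percentile and 1 with an offset of 16. Members called numbered 2 over probes well above background in a group, 15 with array weights and 7 at an adjusted p under 0.05. With 1 array left out 0 to 83 members were called, 83 being without *vhl* mutant replicate 1. The members called under normexp, scaling or an offset of 16 were *kyat1* and the UniGene probe Dr#S45448758, which was not well above background in wild-type. With replicate number as a block 0 probes and 0 members were called. In that fit *vhl* mutant replicate 1 and wild-type replicate 2 each had a block of their own, so nothing is read from the count. Deviations of same-numbered arrays from their group means had r of -0.004 for number 3 and 0.006 for number 4. Only these numbers occur in both groups, so this cannot tell whether the numbers pair the samples.

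With 3 arrays per group, each pool is 1 value and the spread between embryos is not measured. Replicate 1 is 1 pool on 1 array, so its difference has no replicate check.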
